A study of Caenorhabditis elegans with 2 samples.

Results

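LIN-35 is the only Rb-family pocket protein of the nematode Caenorhabditis elegans. The 10 genes described here encode proteins that act directly on cyclin-dependent kinases (CDKs) or on their substrates: the Cdc25 phosphatases cdc-25.1, cdc-25.2, cdc-25.3 and cdc-25.4, the Wee1-family kinases wee-1.1 and wee-1.3, the CDK inhibitors cki-1 and cki-2, the CDK-binding protein cks-1 and the phosphatase cdc-14. They were taken by name, with earlier results of these data known, from the 19973 protein-coding genes on the 6 nuclear chromosomes. LIN-35 was mapped by chromatin immunoprecipitation with sequencing (ChIP-seq) in whole first-stage (L1) larvae of mixed sex. The strain, YL409, has the unc-119(ed3) allele and the integrated array vrIs60, which carries unc-119(+) and a LIN-35::GFP::FLAG fusion under lin-35's own promoter and 3′ UTR. There was 1 group with 2 biological replicates, so no condition, stage or genotype could be compared, and no tissue could be told from another in whole larvae. The antibody is labelled only as lin-35, while the experiment is described as against the eGFP fusion, so whether the peaks are of the fusion, the endogenous protein or both cannot be told apart. An untagged or lin-35 mutant sample was not analysed here.

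Entry into mitosis depends on CDK-1. Wee1-family kinases add inhibitory phosphates to it and Cdc25 phosphatases remove them, so the members of these families work against each other. CKI proteins of the p21/p27 family bind cyclin-CDK complexes and hold cells before S phase, and in worms CKI-1 is known for keeping larval precursor cells arrested. Pocket proteins do not contact DNA themselves: in the DREAM complex LIN-35 is joined to promoters through E2F-DP and LIN-54, which recognise the E2F site and the cell cycle genes homology region (CHR).

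LIN-35 peaks were found at 3 of the 10 genes: the inhibitory kinase wee-1.3, the CDK inhibitor cki-2 and the phosphatase cdc-14. A gene counted as bound when it held a summit from the list the authors had filtered by irreproducible discovery rate (IDR), a measure of agreement between replicates, either inside the gene or no more than 1000 bp from its start. By the same rule 19.0% of all protein-coding genes were bound, and 17.2% were with the start window alone, under which the same 3 members counted. The members' count was not tested against that background. None of the 4 Cdc25 genes was bound, 1 of 2 Wee1-family genes was, and 1 of 2 CDK inhibitor genes was. The 3 bound genes held 4 IDR peaks, all upstream of the gene and between protein-coding genes, and all on chromosome II, which carries 6 of the 10 members. Over all bound protein-coding genes the strongest summit was upstream in 79.6%, so the members' positions are near the background.

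The sequences at the 4 summits are shown because they let the letters of E2F and CHR sites be read beside the values. Each is the 101 bases centred on the IDR summit, from the WBcel235 (ce11) assembly, on the strand of the gene. Capitals mark matches on either strand to the E2F letters TTCCCGC or TTCGCGC, to the related TTGCCGC or TTGGCGC, and to the CHR letters TTCGAA or TTTGAA.

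wee-1.3 (chrII:9716799-9716899, minus strand): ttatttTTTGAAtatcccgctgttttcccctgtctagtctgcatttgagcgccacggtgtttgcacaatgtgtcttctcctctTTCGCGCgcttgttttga
cki-2 (chrII:7816301-7816401, plus strand): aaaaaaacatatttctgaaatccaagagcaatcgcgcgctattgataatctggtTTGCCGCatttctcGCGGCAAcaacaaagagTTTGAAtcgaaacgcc
cdc-14, gene-proximal peak (chrII:5593721-5593821, minus strand): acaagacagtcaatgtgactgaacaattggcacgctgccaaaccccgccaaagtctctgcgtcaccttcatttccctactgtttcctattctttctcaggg
cdc-14, distal peak (chrII:5594342-5594442, minus strand): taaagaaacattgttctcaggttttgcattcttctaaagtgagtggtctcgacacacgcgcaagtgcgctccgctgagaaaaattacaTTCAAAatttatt

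E2F letters were present at the wee-1.3 and cki-2 summits and at neither cdc-14 summit. At wee-1.3 the single match, TTCGCGC, was centred 36 bp from the summit on the side of the gene. At cki-2 there were 2 matches to TTGCCGC, facing each other with their centres 14 bp apart, 7 and 21 bp from the summit. Within 50 bp of the summit 13.0% of all 3838 IDR peaks held at least 1 E2F match, against 3.73% of windows of the same length 500 bp to either side. The share of IDR peaks with 2 or more was 1.49%. That share counts overlapping matches on the 2 strands as 2, while the matches at cki-2 were separate. CHR letters were present at 3 of the 4 member summits, with centres 38 to 41 bp from the summit. They stood at 24.6% of all IDR summits and in 32.3% of the windows 500 bp to the side. The 4 windows held 38.6% to 48.5% G and C, within the 10th to 90th percentile of all IDR windows (37.6% to 56.4%). A match describes the letters only.

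wee-1.3 encodes the worm's Myt1-type kinase, which phosphorylates CDK-1 and is known for holding oocytes in meiotic arrest. Its peak (chrII:9716695-9717011) had a signal of 516 in replicate 1, 1274 in replicate 2 and 1784 in the pooled list. The signal is the authors' own value for each peak and its scale differs between lists, so the rank within a list is the comparable quantity. The peak ranked 31 of 23861 in replicate 1, 23 of 30000 in replicate 2, and 24 of 3838 in the IDR list. It was thus among the strongest peaks of either replicate.

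The wee-1.3 summit lay 382 bp upstream of the gene record, at 370 bp in replicate 1 and 387 bp in replicate 2. No other protein-coding gene started within 1000 bp of it. A piRNA gene record also lay inside the peak, its start 77 bp from the summit. Of the 3797 bound protein-coding genes 35, wee-1.3 included, had a strongest peak that ranked at least this high, and the median rank over those 3797 genes was 1450. The strongest summit lay more than 300 bp upstream in 30.3% of bound genes, and their median was 175 bp upstream. A second, weak summit at 258 bp inside the coding sequence reached a signal of only 21.6 in the pooled list and was missing from replicate 1.

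**Figure D1:**
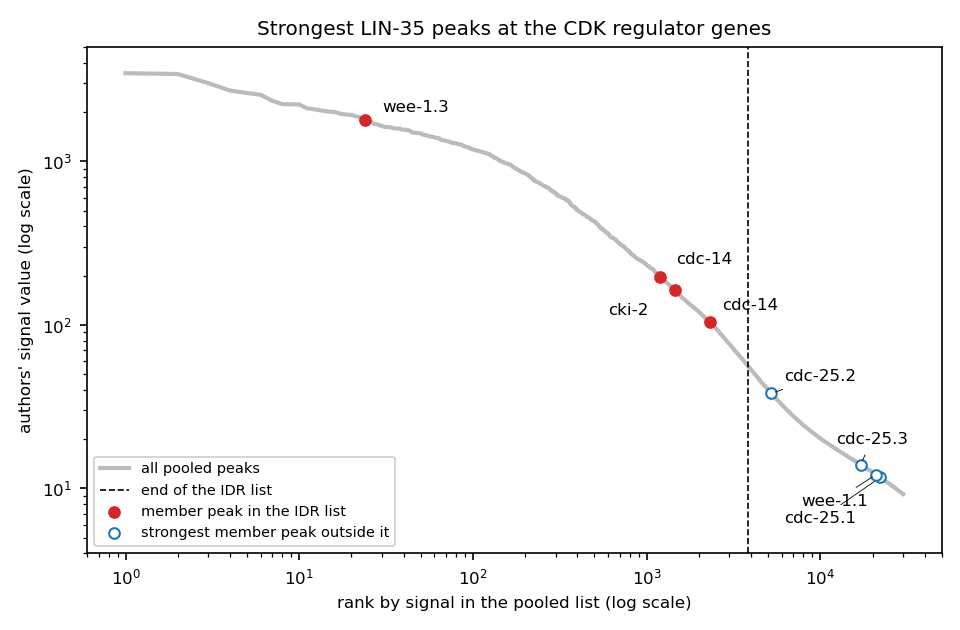
Signal of every pooled peak against its rank, both on log scales, with the members' peaks marked and the end of the IDR list (3838 peaks) dashed. wee-1.3 sits at rank 24, cdc-14 and cki-2 between ranks 1194 and 2317, and the strongest peaks of 4 other members fall outside the IDR list.

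The other Wee1-family gene, wee-1.1, had no IDR peak. Its best pooled summit lay 903 bp upstream, in the 3′ UTR of the neighbouring gene ugt-58, at a signal of 12.1 and rank 20963 of 30000. Replicate 2 had a peak there at rank 20919 and replicate 1 had none. The IDR summit closest to wee-1.1 was 7713 bp upstream and lay 18 bp from the start of another gene, tag-124. In the pooled list the paralogs thus stood at ranks 24 and 20963.

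The CDK inhibitor pair differed at its starts as well. cki-2 had an IDR peak (chrII:7816279-7816441) with a signal of 36.1 in replicate 1, 116 in replicate 2 and 162 in the pooled list. The peak ranked 1673 in replicate 1, 1478 in replicate 2 and 1461 in the IDR list, near the median rank of bound genes. Its summit was 148 bp upstream of the gene, 176 bp in replicate 1 and 114 bp in replicate 2. Those summits were 62 bp apart, while the median gap over the 3732 IDR peaks found in both replicates was 21 bp and 17.3% of them had a gap at least this wide. No other protein-coding gene started within 1000 bp.

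cki-1, the inhibitor with the better known role in larval arrest, had no summit by the rule in the IDR, pooled, replicate 1 or replicate 2 list. Both genes lie on the same strand with 4393 bp between them, and the cki-2 summit lay 4246 bp past the end of cki-1. The IDR summit closest to cki-1 lay 4164 bp upstream of it, in a stretch with no protein-coding gene, and cki-1 was the protein-coding gene with the nearest start. This distal peak had a signal of 42.7 and rank 1439 in replicate 1, 53.3 and rank 3121 in replicate 2, and 93.4 and rank 2546 in the IDR list. It is outside the 1000 bp rule and does not count for cki-1. Over all protein-coding genes the median distance to the closest IDR summit was 9179 bp, and 67.4% of genes had theirs farther away than cki-1.

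The distal peak upstream of cki-1 is shown because its E2F letters read the same on both strands. Capitals mark 2 overlapping matches to TTGGCGC, 1 on each strand, centred 37 and 40 bp from the summit on the side of cki-1.

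cki-1 distal peak (chrII:7807026-7807126, plus strand): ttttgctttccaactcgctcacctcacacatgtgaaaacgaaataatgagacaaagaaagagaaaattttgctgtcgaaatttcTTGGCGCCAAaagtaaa

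**Figure D2:**
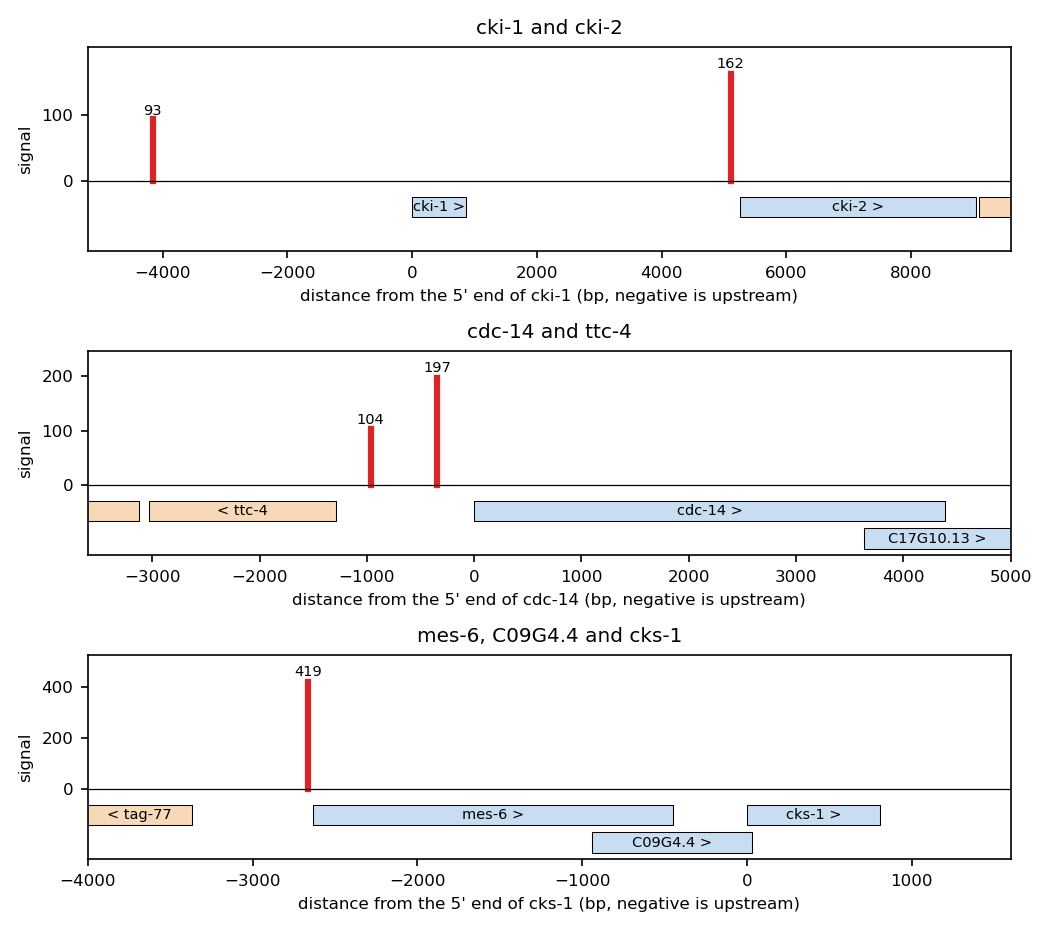
IDR peaks (red bars, height is the authors' signal on a linear axis, value on top) and protein-coding gene records (blue, same strand as the gene at 0; orange, opposite strand) by distance in bp from the 5′ end of cki-1, cdc-14 and cks-1. The cki-1 start has no peak near it, cdc-14 and ttc-4 share an interval with 2 peaks, and the peak nearest to cks-1 stands at mes-6.

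cdc-14 encodes a dual-specificity phosphatase that acts on CDK substrates, and in worms it is known to keep precursor cells quiescent. It was the member with 2 IDR peaks, and 2 or more were found in 9.61% of bound genes. The gene-proximal peak (chrII:5593681-5593816) had a signal of 50.5 in replicate 1, 137 in replicate 2 and 197 in the pooled list, and ranked 1235 in replicate 1, 1254 in replicate 2 and 1194 in the IDR list. Its summits in the replicates, 344 and 342 bp upstream, were 2 bp apart. This summit also lay within 1000 bp of another start, 943 bp from that of ttc-4, so by the rule it is shared, though cdc-14 is nearer. The replicates placed this peak at nearly the same base and nearly the same rank.

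The distal cdc-14 peak (chrII:5594230-5594553) was 965 bp upstream of the gene, the member summit nearest to the limit of 1000 bp. It lay 322 bp from the start of ttc-4, a tetratricopeptide repeat gene on the opposite strand, whose start is 1287 bp from that of cdc-14. Like the gene-proximal peak it is shared by the rule, but here ttc-4 is the nearer gene, and which gene a peak belongs to was not tested. Its signal was 9.75 in replicate 1, 82.2 in replicate 2 and 104 in the pooled list. The rank was 4987 in replicate 1 and 2136 in replicate 2, so in replicate 1 it was not among the 3838 strongest peaks. That was so for 17.4% of the IDR peaks found in both replicates.

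**Figure D3:**
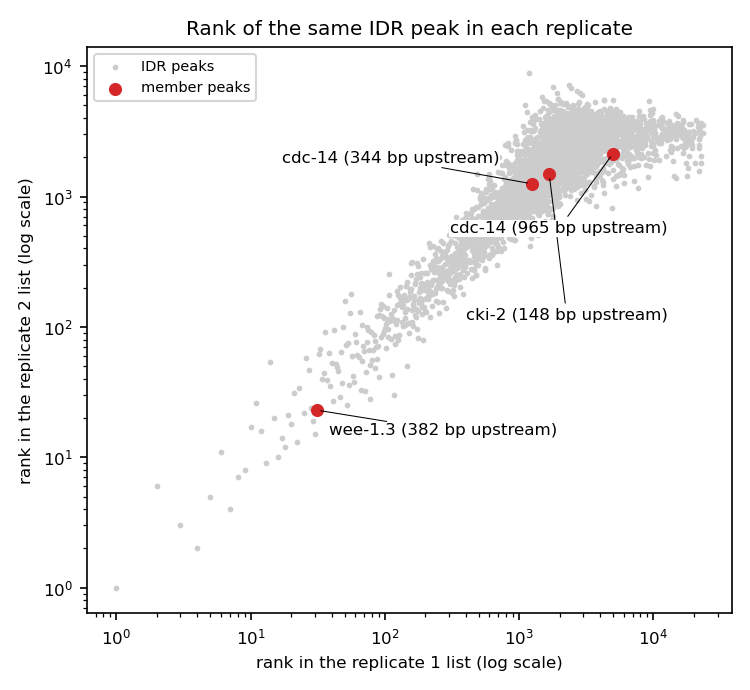
Rank of each IDR peak in the replicate 1 list against its rank in the replicate 2 list, on log axes, with the 4 member peaks in red. The wee-1.3, cki-2 and gene-proximal cdc-14 peaks lie on the diagonal band, and the distal cdc-14 peak lies to its right, at rank 4987 in replicate 1 and 2136 in replicate 2.

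cks-1 encodes the small subunit that binds CDKs and helps them reach their substrates. It had no peak by the rule in any of the 4 lists. Its start overlaps the end of C09G4.4, which follows mes-6 on the same strand, so cks-1 may be transcribed as a downstream gene of an operon. The start of mes-6, which encodes a subunit of the MES Polycomb-type complex, lies 2635 bp upstream of that of cks-1. An IDR peak (chrIV:8511130-8511371) had its summit 28 bp upstream of mes-6, with a signal of 419, and ranked 400 in replicate 1, 583 in replicate 2 and 514 in the IDR list. Taking the start of the candidate operon in place of the gene's own start made cks-1 the fourth bound member, and raised the share of all protein-coding genes from 19.0% to 24.0%.

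The Cdc25 phosphatases, which activate CDK-1, had weak peaks or none. cdc-25.2, known for roles in oocyte maturation and intestinal divisions, came closest to the IDR list. Its summit 3841 bp inside the gene record had a pooled signal of 38.1, where the IDR list ended at 56.0, and ranked 5234 of 30000. The peak was found in both replicates, at 3837 bp with a signal of 17.8 and rank 2996 in replicate 1, and at 3865 bp with a signal of 19.1 and rank 7696 in replicate 2. By rank it would have been inside a list of the 3838 strongest peaks in replicate 1 and outside it in replicate 2.

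The cdc-25.2 record starts with a non-coding transcript, and the first coding transcript begins 10615 bp further on, so this summit lies in an intron and 6774 bp upstream of the first coding transcript. It is shown as the strongest member peak outside the IDR list, and it holds CHR letters and no E2F letters.

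cdc-25.2 intronic peak (chrV:1570867-1570967, plus strand): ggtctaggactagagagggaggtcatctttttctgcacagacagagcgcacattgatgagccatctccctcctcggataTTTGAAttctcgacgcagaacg

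cdc-25.2 also had 9 weaker pooled summits along its 18457 bp, with signals from 9.92 to 22.7. The IDR summit closest to its start was 92408 bp away, at unc-60, the worm's cofilin gene. Only 2.72% of protein-coding genes had a closest IDR summit farther off. Measured from its start, cdc-25.2 was thus the member most distant from any IDR peak.

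cdc-25.1, which drives divisions in the germline and the early embryo, had a pooled summit 153 bp upstream at a signal of 11.7 and rank 22175. In replicate 1 a peak 77 bp upstream reached a signal of 10.6 and rank 4561. A weaker replicate 1 peak 308 bp upstream had a signal of 2.26 and rank 22155. Replicate 2 had no peak upstream of the gene. The replicates thus differed at this start. The closest IDR summit, 11032 bp downstream, lay 12 bp inside the record of the kinetochore gene knl-2.

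cdc-25.3 had 1 summit in each of the pooled, replicate 1 and replicate 2 lists, and each was at another place: 783 bp upstream (signal 13.96), 246 bp inside the gene (signal 3.50) and 130 bp upstream (signal 8.17). The IDR summit closest to it was 4298 bp upstream, with glb-1 as the nearest gene. cdc-25.4 had no summit in any of the 4 lists, and its closest IDR summit, 7830 bp upstream, lay at R05H5.3.

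**Figure D4:**
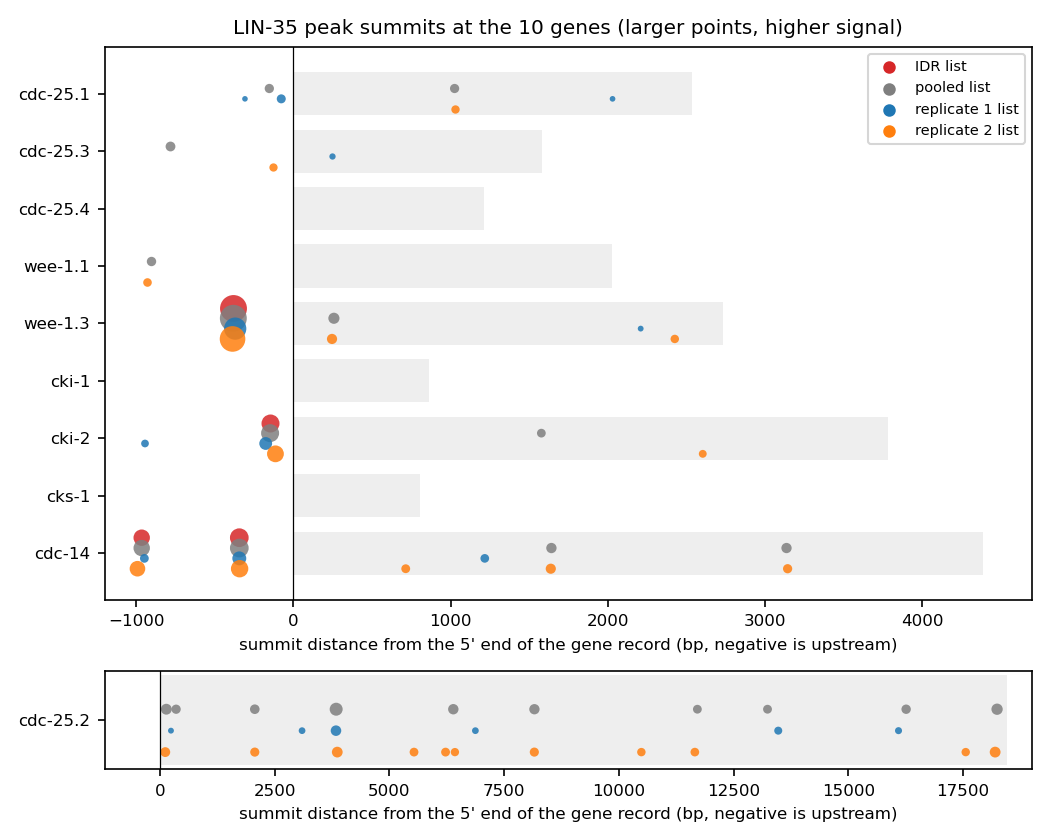
Summits of all peaks at the 10 genes in the 4 lists by distance from the 5′ end of the gene record in bp, with the gene record in grey and the point area rising with the signal of that list (scales differ between lists). Large points in all 4 lists stand upstream of wee-1.3, cki-2 and cdc-14, and cdc-25.4, cki-1 and cks-1 have no point.

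Weak peaks need the background to be read. By the rule 7 of 10 members had a summit in the pooled list, 6 in replicate 1 and 7 in replicate 2, where 60.1%, 57.9% and 60.6% of all protein-coding genes had one. cdc-25.4, cki-1 and cks-1 had none in any list, as did 23.2% of protein-coding genes. Outside the IDR list the members had 18 pooled peaks, 10 of them at cdc-25.2, the longest of the genes. A peak in both replicate lists overlapped 3 of these 18, all at cdc-25.2, and 25.8% of all pooled peaks outside the IDR list. Of those 3, the summits at 141 and 354 bp overlapped the same replicate peaks. The median signal over the pooled list was 15.2.

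E2F letters upstream of a member did not go with a peak in every case. In the 500 bp upstream of the gene record they were present at 6 of 10 members, against 15.2% of all protein-coding genes. Those 6 were wee-1.3 and cki-2, which were bound, and cdc-25.1, cdc-25.2, cdc-25.3 and cks-1, which were not. The unbound matches were TTGGCGC at cdc-25.1 and cdc-25.2, and TTCCCGC at cdc-25.3 and cks-1, at 279, 173, 340 and 208 bp upstream in that order. The cdc-25.2 record starts 10615 bp before its first coding transcript, and cks-1 may be a downstream gene of an operon. The windows at cdc-25.2 and cks-1 thus need not be promoters of the coding transcripts. cdc-14 was bound and had no E2F letters in that window. Of the 3034 protein-coding genes with E2F letters there, 27.7% were bound, against 19.0% of all protein-coding genes. CHR letters were present upstream of all 10 members and of 86.4% of protein-coding genes.

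Of 25 CDKs, cyclins and other regulators that work with these proteins, 17 were bound by the same rule (68.0%), against 19.0% of all protein-coding genes. The list and its bound genes include lin-35 itself and the E2F-DP genes of DREAM, efl-1 and dpl-1. When each peak was given only to its nearest start, 12 remained (48.0%), against 13.6% of all protein-coding genes under that setting. cyb-1 was not among them, since its summit lay 139 bp from orc-5 and 489 bp from cyb-1. The summit of the strongest cye-1 peak likewise lay nearer to another start, 97 bp from pqn-21 and 551 bp from cye-1. cye-1 had 2 IDR peaks and stayed among the 12, so its place there rests on the weaker peak. The list was chosen with earlier results of these data known, and its share was not tested against that of the 10 members. The strongest peaks were at efl-1, the E2F subunit of DREAM (signal 1964, rank 17), lin-35 itself (signal 1890, rank 21), the B-type cyclin cyb-1 (signal 1120, rank 120), the G1/S cyclin cye-1 (signal 660, rank 284) and the checkpoint kinase chk-1 (signal 572, rank 352). The cyb-1 peak was shared with orc-5, that of cye-1 with pqn-21, that of efl-1 with fbxa-90 and that of lin-35 with vps-51. The array also carries the lin-35 promoter, and its part in the lin-35 peak was not tested.

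Among these 25 genes only efl-1 and lin-35 had a stronger peak than wee-1.3, and 11 had a stronger one than cdc-14. The 8 genes with no IDR peak were the cyclins cya-1, cyb-2.1, cyb-2.2 and cyd-1, the Polo kinase plk-2, the meiotic checkpoint kinase chk-2, the cullin cul-1 and the anaphase-promoting complex activator fzr-1. Of these, chk-2 had the strongest pooled peak, with a signal of 47.7 and rank 4356.

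**Figure D5:**
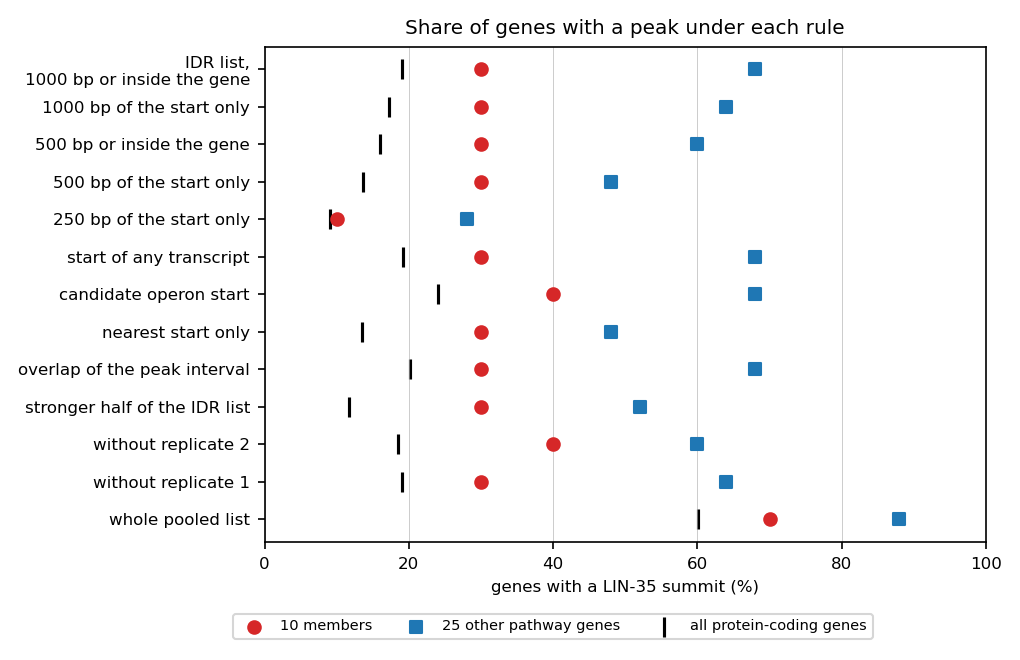
Percentage of the 10 members (red), the 25 other pathway genes (blue) and all protein-coding genes (black bars) with a LIN-35 summit under the main rule (top) and each alternative. Of the 10 members 3 have a summit in most settings, 1 within 250 bp of the start and 7 in the whole pooled list, where 60.1% of all genes have a summit.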

How the data were processed

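The values are the authors' deposited peak lists in ce11: 1 per replicate, 1 pooled over both and 1 that passed an IDR threshold, which held exactly the 3838 strongest of the 30000 pooled peaks. Per the deposited file manifests, each replicate list derives from that replicate's alignment and 1 further file of unstated type, the pooled list from both alignments and that file, and the IDR list from the other 3. The sources used here do not name the aligner, the peak caller or the IDR threshold. The deposited signal value per peak is the authors', on a scale that differs between lists, and was used only to rank and describe peaks within a list. Read depth is unknown, so no interval was given. The lists in the older ce10 build were not used here.

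Genes came from Ensembl release 115 and sequence from RefSeq's genome of the same assembly, WBcel235, and no ce11 peak passed the end of a chromosome. Coordinates count from 1. Peaks of different lists were matched by an overlap of at least 1 bp. A candidate operon was a chain of genes on 1 strand in which each ends within 500 bp of the start of the next. With 1 group no test between groups was made. Python 3.11.15, numpy 2.4.6 and pandas 2.3.3 were used, and the assignment and motif search were tested on simulated data.

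The members and lists were chosen with earlier results of these data known. The genes named are the members, genes whose start lies within 1000 bp of a member's IDR summit, the 5 strongest bound and all unbound genes of the pathway list, and the gene nearest to the closest IDR summit of an unbound member. The motif search upstream of the genes, the sequences at cki-1 and cdc-25.2, and C09G4.4, ugt-58, orc-5, pqn-21, fbxa-90, vps-51 and the naming of dpl-1 were chosen after the values were seen.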

Additional observations from a re-analysis of the deposited data

How the results depend on the processing

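wee-1.3, cki-2 and cdc-14 were the bound members in 8 of the 12 alternative settings: the start window of 1000 bp alone, both windows of 500 bp, the start of any transcript, the nearest start only, any overlap of the peak, the stronger 1919 IDR peaks and the 3838 strongest peaks of replicate 2. In those 8 settings 11.6% to 20.2% of all protein-coding genes were bound. Within 250 bp of the start only cki-2 remained, since the wee-1.3 and cdc-14 summits lie 382 and 344 bp upstream. There 1 member and 7 of the 25 pathway genes were bound, against 9.10% of all protein-coding genes. In the whole pooled list 7 members had a summit, against 60.1% of all protein-coding genes. The candidate operon start added cks-1, with 24.0% of all protein-coding genes bound. Leaving out either replicate gave 3 to 4 bound members, with cdc-25.2 added in the 3838 strongest peaks of replicate 1. It also gave 15 to 16 bound pathway genes, where 18.5% to 19.1% of all protein-coding genes were bound. The number of member peaks with E2F letters was 2 under the main rule and the 4 alternatives, and that with CHR letters was 2 to 4. Over all peaks of each setting the shares were 12.5% to 19.6% for E2F letters and 24.6% to 50.6% for CHR letters. No paired analysis was possible because there is 1 group. With 2 replicates and unknown depth, a peak missing from a list was not detected by the authors' calling, which does not show that LIN-35 was absent.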
